A study of Homo sapiens with 6 samples.

Results

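The nuclear genes for the subunits of the mitochondrial respiratory chain were examined after knock-down of the long non-coding RNA HOTAIRM1 in glioblastoma cells. Members were chosen by symbol: the NDUFA, NDUFB, NDUFC, NDUFS and NDUFV genes, the SDH and UQCR genes, the COX4 to COX8 genes, the ATP5 genes, CYC1 and CYCS. This gave 84 of the 59074 genes listed, of which 37 belong to complex I, 4 to complex II, 9 to complex III, 18 to complex IV and 15 to complex V, and 1 encodes cytochrome c. NDUFA4, first described with complex I, was placed with complex IV. RNA had been taken for sequencing 72 h after transfection. The cells were LN-229 (LNT229 in the library titles), T98G and U251, which are established lines from human glioblastomas. In each line, siControl cells received a non-target siPOOL, a mixture of many small interfering RNAs, and siHOTAIRM1 cells a siPOOL against HOTAIRM1. Each line had 1 library per condition, 6 in all, so the 3 lines served as replicates and no test was possible within a line.

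The respiratory chain sits in the inner mitochondrial membrane. Complex I takes electrons from NADH and complex II takes them from succinate, both pass them through ubiquinone to complex III, and the small carrier cytochrome c brings them to complex IV, where oxygen is reduced. Complexes I, III and IV pump protons, and complex V, the ATP synthase, uses the returning protons to make ATP. All complexes but complex II combine subunits from nuclear genes with subunits encoded in mitochondrial DNA, and several complex IV subunits have a second isoform limited to certain tissues. Cultured glioblastoma lines use both glycolysis and respiration.

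Values were the deposited CPM (counts scaled to a library total of 1e6), to which the authors had added 0.0001. Depths of 88.3 M and 104 M reads in LN-229 (siControl and siHOTAIRM1), 69.1 M and 72.7 M in T98G and 52.3 M and 101 M in U251 followed from the smallest step between low values. Among the members past the filter given further on, the fewest reads of any gene in any library were 206 (ATP5D in T98G siHOTAIRM1). The siControl library of U251 stood apart from the other 5. Its listed genes summed to 67.2% of the CPM scale, against 42.9% to 55.9% in the others, and small RNAs without a poly(A) tail made up 22.3% of that sum, against 10.7% to 13.8%. It also had the lowest depth, though its reads on listed genes (35.1 M) were above those of T98G siControl (34.7 M) and T98G siHOTAIRM1 (31.2 M). Differences that passed the test are therefore also given without U251, and whether this library's composition had a part in the differences was not tested. All 13 mitochondrially encoded subunits were listed at 0.0001 in every library, as were all 37 mitochondrial DNA genes, so only nuclear subunits could be described.

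HOTAIRM1 was at 1.99 CPM in siControl and 0.952 CPM in siHOTAIRM1 cells of LN-229, at 3.49 and 2.15 CPM in T98G and at 1.27 and 0.623 CPM in U251. The target was thus lower in the siHOTAIRM1 library of all 3 lines. On the log2(CPM + 1) scale, which understates changes of genes this low, it fell by 0.54 (SE 0.12, limma with cell line as block, adjusted p = 0.0146). The adjusted p was 0.0711 without LN-229, 0.435 without T98G and 0.00988 without U251. It was 0.637 by a paired t-statistic, 0.170 after centring on the median of all genes and 0.234 after scaling each library to the sum of its listed genes.

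Of the 7 glial and glioma markers (GFAP, S100B, SOX2, NES, VIM, OLIG2 and CD44), the summed level was 1363 and 1352 CPM in LN-229, 1186 and 878 CPM in T98G and 3079 and 2528 CPM in U251. VIM, an intermediate filament, was the most abundant of them in LN-229 and U251, and CD44, a hyaluronan receptor, in T98G. Several glial markers were at or near the added value in T98G: S100B was listed at 0.0001 in both its libraries, SOX2 did not exceed 0.0146 CPM and GFAP did not exceed 0.0551 CPM. GFAP was above 1 CPM only in U251, at 42.5 and 20.7 CPM. None of the 6 markers past the filter passed the test by limma, and 0 by a paired t-statistic for every gene by itself. At an unadjusted p under 0.05 (limma) there was 1 of the 6, against 18.3% of all genes. The 4 markers of other cells (PTPRC, CD68, PECAM1 and EPCAM) summed to 1.16 and 1.02 CPM in LN-229, 8.54 and 3.54 CPM in T98G and 1.19 and 0.354 CPM in U251. CD68, which is also found in lysosomes of other cell types, was the most abundant at up to 7.80 CPM and fell (−0.62, SE 0.15, limma adjusted p = 0.0223, lower in 2 of 3 lines; adjusted p = 0.590 without T98G, 0.00429 without U251, 0.637 by the paired t-statistic, 0.205 after centring and 0.277 after scaling to listed genes), while the leukocyte marker PTPRC did not exceed 0.0870 CPM. In bulk libraries like these, fewer cells of a type and less RNA per cell cannot be told apart.

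A filter of a mean of at least 1 CPM kept 78 of the 84 members and 14294 genes in all. The 6 members below it were the tissue-limited complex IV isoforms described further on. Knock-down cells had the lower level for 36 of the 78 members in LN-229, for all 78 in T98G and for 74 in U251. The median difference of log2(CPM + 1), siHOTAIRM1 minus siControl, came to 0.01 for LN-229, −0.41 for T98G and −0.65 for U251. All genes past the filter had medians of 0.01, −0.19 and −0.03. Relative to these, the members' medians were −0.00, −0.22 and −0.62 in the same order. Below the median of all genes lay 40 of 78 members in LN-229, against 73 in T98G and 74 in U251, and no member was higher in all 3 lines while 35 were lower in all 3, against 1624 and 4019 of all 14294 genes. Of all genes, 46.3% were lower in LN-229, while 79.3% were lower in T98G and 53.2% in U251. LN-229 thus had no common direction, whereas in T98G and U251 nearly every member was lower than in the paired control. With each library scaled to the sum of its listed genes, 47 of 78 were lower in LN-229, against 71 in T98G and 70 in U251.

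**Figure D1:**
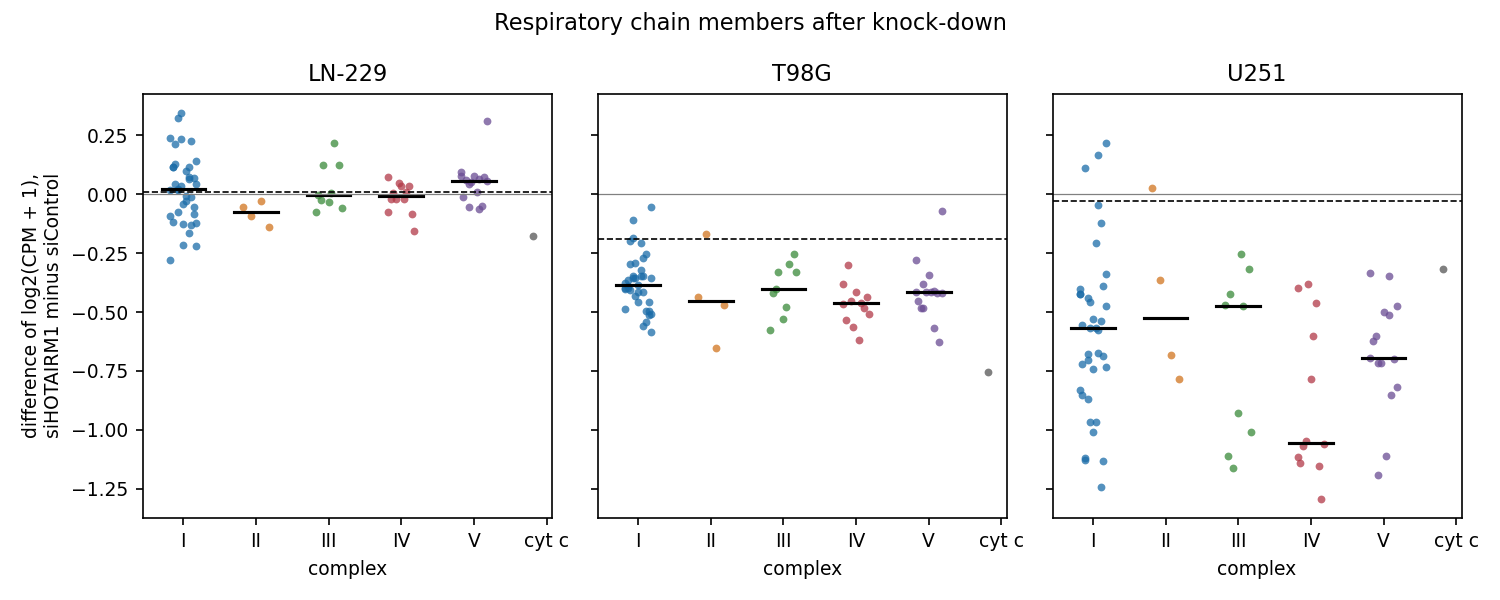
Difference of log2(CPM + 1), siHOTAIRM1 minus siControl, of the 78 members past the filter (1 point per gene, spread sideways for legibility) by complex in LN-229, T98G and U251. Solid bars are medians per complex, the dashed line is the median of all 14294 genes and the grey line is 0. Points scatter around 0 in LN-229, lie below 0 in T98G, and reach −1.29 in U251, where complex IV has the lowest median (−1.06).

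The summed CPM of the members differed along with the library composition described above. It was 2685 and 2705 CPM in LN-229, 3229 and 2362 CPM in T98G and 5707 and 3575 CPM in U251, so the U251 control had the highest sum of all libraries. The sum differed by 0.725%, −26.8% and −37.4%. As a share of the CPM of protein-coding genes, members held 0.709% and 0.706% in LN-229, 0.797% and 0.700% in T98G and 1.20% and 0.810% in U251. On this share the siHOTAIRM1 libraries of the 3 lines lay closer together than the siControl libraries. Scaled to the sum of listed genes, the median of all genes moved by more than 0.1 in T98G and U251, to −0.00 and 0.16. The members' medians under this scaling were −0.04, −0.20 and −0.39, so that the sign in LN-229 turned.

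**Figure D2:**
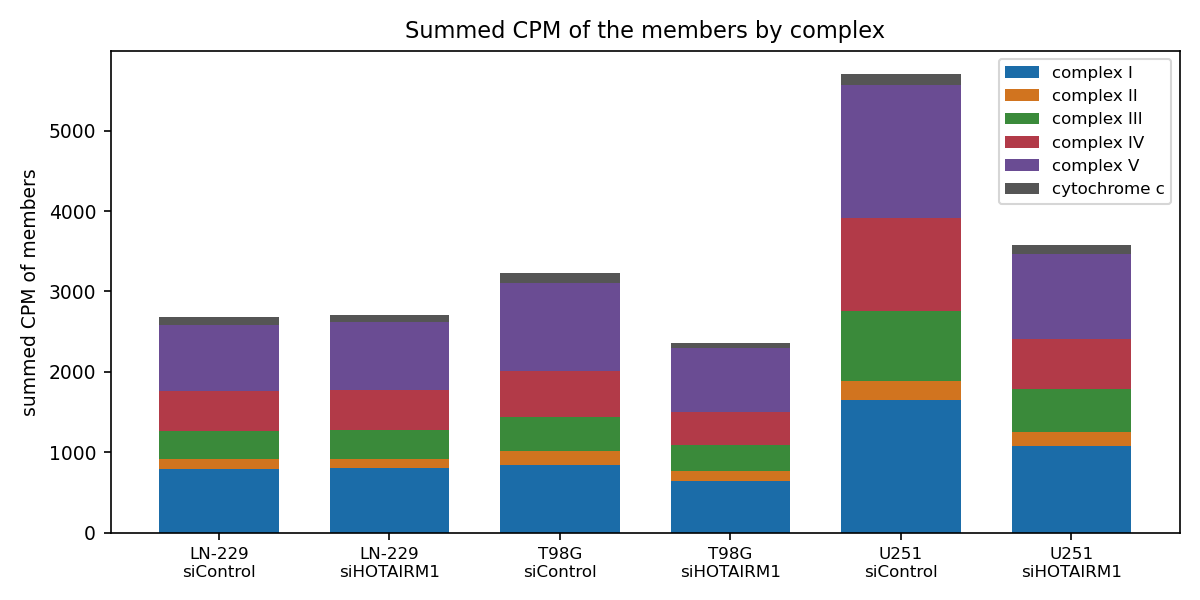
Summed CPM of the members in each library (bars from 0), divided by complex. The bar of the U251 siControl library (5707 CPM) is the tallest and that of T98G siHOTAIRM1 (2362 CPM) the lowest.

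Across the 3 lines, 3 of 78 members (3.85%) fell and 0 rose at an adjusted p under 0.05 (limma), against 2.0% of all genes in either direction, 1.59% lower and 0.413% higher. At an unadjusted p under 0.05 there were 48 of 78 members (61.5%), against 18.3% of all genes. A paired t-statistic for every gene by itself called 0 of 78 after adjustment and 1 at an unadjusted p under 0.05. The 3 were NDUFB6 of complex I and COX7A2 and COX6A1 of complex IV, each with an adjusted p of 0.637 by the paired t-statistic. Their limma SEs draw mostly on the variance of other genes, and little on each gene's own spread between the 3 lines. Without U251 no member passed (0 by limma, 3 at an unadjusted p under 0.05), without T98G also none (0 by limma, 17 at an unadjusted p under 0.05), and without LN-229 there were 14, the 3 among them. No member passed after centring on the median of all genes (0 by limma, 33 at an unadjusted p under 0.05) or after scaling to the sum of listed genes (0 by limma, 20 at an unadjusted p under 0.05).

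NDUFB6, an accessory subunit of the distal membrane arm of complex I (chr9:32553001-32573184, minus strand, GRCh38), was at 15.6 CPM in siControl and 14.2 CPM in siHOTAIRM1 cells of LN-229, at 13.7 and 9.07 CPM in T98G and at 67.0 and 27.7 CPM in U251. The U251 control was far above the other 5 libraries, and each line was lower after knock-down. The gene fell by 0.64 on the log2(CPM + 1) scale (SE 0.16, limma adjusted p = 0.0269, lower in 3 of 3 lines). Without U251 the difference was −0.34 (adjusted p = 0.722), and without T98G it was −0.69 (adjusted p = 0.581). NDUFB6 shares exonic bases with SMIM27 on the other strand, and the library kit does not mark strand, so its reads are uncertain to that degree.

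COX7A2, the widely expressed form of complex IV subunit 7a (chr6:75237675-75250323, minus strand), was at 42.6 and 40.1 CPM in LN-229, 25.5 and 18.6 CPM in T98G and 122 and 49.3 CPM in U251. It had the largest difference of any member in U251 (−1.29) and a small one in LN-229 (−0.08). Averaged over lines it fell by 0.60 (SE 0.17, limma adjusted p = 0.0461, lower in 3 of 3 lines), while the difference was −0.26 without U251 (adjusted p = 0.859) and −0.69 without T98G (adjusted p = 0.581). COX6A1, the widely expressed form of subunit 6a (chr12:120438090-120440737, plus strand), was at 37.4 and 33.4 CPM in LN-229, 34.9 and 24.2 CPM in T98G and 82.3 and 38.9 CPM in U251. Here too the U251 control stood highest and both other lines were lower after knock-down by smaller steps. COX6A1 fell by 0.57 (SE 0.15, limma adjusted p = 0.0425, lower in 3 of 3 lines), with −0.33 without U251 (adjusted p = 0.747) and −0.61 without T98G (adjusted p = 0.581). COX6A1 is uncertain because its 2 listed pseudogenes held between 24.9% and 32.9% of the reads given to the gene and its copies, and because a read-through gene shares its exons. The start regions of COX6A1, NDUFB6 and CYCS are shown because 2 of these genes passed the test and CYCS, the cytochrome c gene, had the largest difference of any member in T98G. The sequences are RefSeq promoters on GRCh38.p14, from 250 bases before to 50 bases after the start, at chr12:120437863-120438162 (plus strand), chr9:32573110-32573409 (minus strand) and chr7:25125211-25125510 (minus strand). Capitals mark matches to GCATGCGC (a core of the NRF1 motif) or CCGGAAG (a core of the ETS motif) on either strand. The window listed for COX7A2 begins 6497 bases away from the start of its canonical transcript and is not shown.
COX6A1: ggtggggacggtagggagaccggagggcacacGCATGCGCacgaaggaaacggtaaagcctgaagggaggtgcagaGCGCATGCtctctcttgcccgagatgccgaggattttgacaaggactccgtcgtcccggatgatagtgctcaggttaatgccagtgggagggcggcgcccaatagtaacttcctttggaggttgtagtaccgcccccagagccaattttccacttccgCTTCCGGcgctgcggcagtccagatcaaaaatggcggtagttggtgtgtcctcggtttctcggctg
NDUFB6: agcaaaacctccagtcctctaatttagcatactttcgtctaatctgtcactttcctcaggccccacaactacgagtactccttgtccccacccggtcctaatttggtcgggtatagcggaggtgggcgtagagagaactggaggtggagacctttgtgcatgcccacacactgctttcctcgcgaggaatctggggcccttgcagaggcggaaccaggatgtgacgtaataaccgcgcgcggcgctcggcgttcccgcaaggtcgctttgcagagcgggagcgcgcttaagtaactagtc
CYCS: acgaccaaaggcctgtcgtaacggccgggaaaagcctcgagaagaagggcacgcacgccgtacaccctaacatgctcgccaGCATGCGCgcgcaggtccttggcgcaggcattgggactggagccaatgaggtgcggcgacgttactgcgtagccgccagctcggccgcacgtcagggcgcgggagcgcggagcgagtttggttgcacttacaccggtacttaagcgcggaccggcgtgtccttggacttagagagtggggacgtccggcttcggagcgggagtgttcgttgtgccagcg
COX6A1 has 2 NRF1 cores and 1 ETS core in this window, CYCS has 1 NRF1 core, and NDUFB6 has none of the letters searched.

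RefSeq promoters were found for 68 of the 84 members, and 64 of them lay within 100 bases of the start of the canonical transcript. The NRF1 core was present in 14 of the 68 (20.6%), against 3.27% of all 27305 promoters and 5.73% of those of genes past the filter. For the ETS core, which GABPA among others recognises, the count was 19 of 68 (27.9%), against 10.7% and 20.03%. The YY1 core AAGATGGC was found in 11 of 68 (16.2%), against 3.03% and 5.60%. Matches can overlap, since CCGGAAG and AAGATGGC can share AAG, AAGATGGC and GCATGCGC can share GC, and GCATGCGC can share letters with its own reverse complement. Of the 68 members, 34 had at least 1 of the 3 motifs, against 15.6% of all promoters and 28.2% of those of genes past the filter. By complex, the NRF1 core was in 5 of 32 promoters of complex I, 2 of 3 of complex II, 0 of 7 of complex III, 2 of 14 of complex IV and 4 of 11 of complex V. These are matches of letters in windows of 300 bases; binding was not measured.

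Complex I oxidises NADH in a matrix arm and pumps protons in a membrane arm. Its 37 members had median differences of 0.02 for LN-229, −0.38 for T98G and −0.57 for U251. With libraries scaled to the sum of listed genes these were −0.02, −0.17 and −0.31, so the sign in LN-229 turned. Of the 37, 16 were lower in LN-229, against 37 in T98G and 34 in U251 (20, 32 and 31 after that scaling). The limma test was passed by 1 of the 37 (NDUFB6), against 2.0% of all genes. At an unadjusted p under 0.05 there were 20 of the 37, against 18.3% of all genes. In U251 the 12 members of the distal membrane arm had a median of −0.76, the 9 of the proximal membrane arm −0.46, the 6 of the ubiquinone-binding module −0.50 and the 10 of the NADH-oxidising module −0.55. After subtracting the medians of genes of like length, an alternative chosen after seeing the data, these were −0.33, −0.22, −0.30 and −0.29, and the U251 median of complex I was −0.24. The 7 core subunits, which carry the flavin and the iron-sulphur clusters, had medians of 0.11, −0.36 and −0.42 in LN-229, T98G and U251. These became 0.07, −0.14 and −0.17 after scaling to listed genes, and 0.06, −0.06 and −0.24 after the subtraction for length. In T98G the same modules lay close together, between −0.35 for the NADH-oxidising module and −0.41 for the distal arm. Differences between modules were not tested.

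Single complex I genes differed widely. NDUFV3, an accessory subunit beside the flavin site, was at 17.9 and 18.5 CPM in LN-229, 12.6 and 12.1 CPM in T98G and 15.1 and 17.7 CPM in U251. It had the highest mean difference of complex I (0.07, SE 0.14, adjusted p = 0.839) and the highest difference of any member in T98G (−0.05, positive after scaling to listed genes) and in U251 (0.22), and its mean turned to −0.00 without U251. Also higher in U251, and named after their values were seen, were NDUFA10 (40.02 and 45.1 CPM) and SDHA of complex II (43.2 and 43.99 CPM), and after scaling to listed genes 70 of 78 members were lower in U251. NDUFB7 and NDUFB8, both of the distal arm, marked the extremes of LN-229. NDUFB7 was at 6.17 and 8.12 CPM in LN-229 (0.35), 8.95 and 7.12 CPM in T98G (−0.29) and 32.3 and 16.0 CPM in U251 (−0.97), so LN-229 and U251 went opposite ways. NDUFB8 was at 47.1 and 38.6 CPM in LN-229 (−0.28), 25.9 and 18.2 CPM in T98G (−0.49) and 36.9 and 27.6 CPM in U251 (−0.40), lower in 3 of 3 lines by similar steps. Its mean difference of −0.39 (SE 0.14) had an adjusted p of 0.127.

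Complex II, succinate dehydrogenase, is also an enzyme of the citric acid cycle and has no subunit from mitochondrial DNA. Its 4 members had medians of −0.07, −0.45 and −0.52 (−0.12, −0.23 and −0.26 after scaling to listed genes). Of the 4, 0 passed the test by limma, against 2.0% of all genes, and 0 by a paired t-statistic for every gene by itself. At an unadjusted p under 0.05 (limma) there were 2 of 4, against 18.3% of all genes. SDHA, the flavoprotein, was at 48.2 and 46.3 CPM in LN-229, 74.7 and 54.9 CPM in T98G and 43.2 and 43.99 CPM in U251. Only T98G showed a clear step for this gene, and the mean difference was −0.16 (SE 0.15, adjusted p = 0.600; −0.01 without T98G and −0.25 without U251). Its value is uncertain, since its 3 listed pseudogenes held 9.47% to 23.2% of the reads. SDHD, a membrane anchor, was at 9.17 and 8.24 CPM in LN-229, 31.1 and 22.2 CPM in T98G and 65.0 and 37.3 CPM in U251. It was lower in 3 of 3 lines (mean −0.46, SE 0.15, adjusted p = 0.0830; −0.30 without U251), and the lines themselves lay further apart than the conditions.

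Complex III passes electrons from ubiquinol to cytochrome c. Its 9 members had medians of −0.00 for LN-229, −0.40 for T98G and −0.47 for U251 (−0.05, −0.18 and −0.21 after scaling to listed genes). Of the 9, 0 passed the test by limma, against 2.0% of all genes, and 0 by the paired t-statistic. At an unadjusted p under 0.05 (limma) there were 5 of 9, against 18.3% of all genes. In U251 the complex was split. UQCRQ, a small accessory subunit, was at 161 and 74.0 CPM in U251 (−1.11), 52.6 and 39.1 CPM in T98G (−0.42) and 47.2 and 47.0 CPM in LN-229 (−0.00). It had the lowest mean of the complex (−0.51, SE 0.16, adjusted p = 0.0872). That mean was −0.21 without U251 (adjusted p = 0.891) and −0.76 without LN-229 (adjusted p = 0.0473). UQCRFS1, the Rieske iron-sulphur protein, had the highest mean (−0.15, SE 0.14, adjusted p = 0.614; −0.06 without U251, −0.29 without LN-229 and −0.00 after scaling to listed genes), from 21.8 and 23.9 CPM in LN-229, 43.2 and 36.1 CPM in T98G and 77.2 and 61.8 CPM in U251. Its difference was positive in LN-229 (0.12) and negative in U251 (−0.32). CYCS, which encodes the carrier cytochrome c, was at 101 and 88.8 CPM in LN-229, 119 and 70.4 CPM in T98G and 143 and 115 CPM in U251. Its step was largest in T98G (−0.75), followed by U251 (−0.32) and LN-229 (−0.18), an order unlike that of the 3 genes that fell. The mean was −0.42 (SE 0.16, adjusted p = 0.142), and −0.25 without T98G. When scaled to listed genes, the steps were −0.53 in T98G, −0.22 in LN-229 and −0.05 in U251. The order of LN-229 and U251 thus depended on the scaling.

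Complex IV, cytochrome c oxidase, reduces oxygen, and its nuclear subunits surround a core made in the mitochondrion. The 12 members past the filter had medians of −0.01 for LN-229, −0.46 for T98G and −1.06 for U251. All 12 were lower in T98G and in U251, and 6 in LN-229 (10 after scaling to listed genes). Relative to the median of all genes the U251 value was −1.03, the lowest of the complexes, and with libraries scaled to the sum of listed genes the medians were −0.05, −0.24 and −0.79. After the subtraction for length the U251 median was −0.68. Of the 12, 2 fell by limma, against 1.59% of all genes. An unadjusted p under 0.05 was found for 10 of 12, the 2 that fell among them, against 18.3% of all genes. COX4I1, the common form of subunit 4, had the mean nearest to 0 (−0.24, SE 0.15, adjusted p = 0.424; −0.15 without U251, −0.39 without LN-229 and −0.09 after scaling to listed genes). It was at 96.3 and 101 CPM in LN-229, 118 and 90.1 CPM in T98G and 111 and 84.1 CPM in U251, and the siControl levels of the 3 lines lay closer together than for the 2 that fell.

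Tissue-limited isoforms were listed at or near the added value. COX4I2, COX6A2 and COX7A1 were listed at 0.0001 in all 6 libraries, COX6B2 and COX8C did not exceed 0.0384 CPM, and COX7B2 was above 0.0001 only in LN-229, at 0.0454 and 0.0674 CPM. NDUFA4L2, a relative of NDUFA4 outside the rule, was highest in the T98G control at 0.362 CPM. A listing at 0.0001 does not show that a gene is silent, since the mitochondrial DNA genes were also listed there. Among the widely expressed counterparts, COX7B was at 27.1 and 26.7 CPM in LN-229, 49.2 and 33.7 CPM in T98G and 142 and 63.9 CPM in U251, and NDUFA4 was at 58.0 and 55.0, 69.0 and 49.7, and 117 and 53.7 CPM in the same order. Both were near level in LN-229 and differed most in U251, with mean differences of −0.56 (adjusted p = 0.0580) and −0.55 (adjusted p = 0.0634). Without U251 these were −0.28 and −0.27 (adjusted p = 0.831 and 0.859), and without LN-229 −0.84 and −0.79 (adjusted p = 0.0333 and 0.0429). COX6B1 had about equal differences in T98G (−0.62) and U251 (−0.60), and COX8A a larger one in T98G (−0.56) than in U251 (−0.38). Neither passed the test (adjusted p = 0.126 and 0.287).

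**Figure D3:**
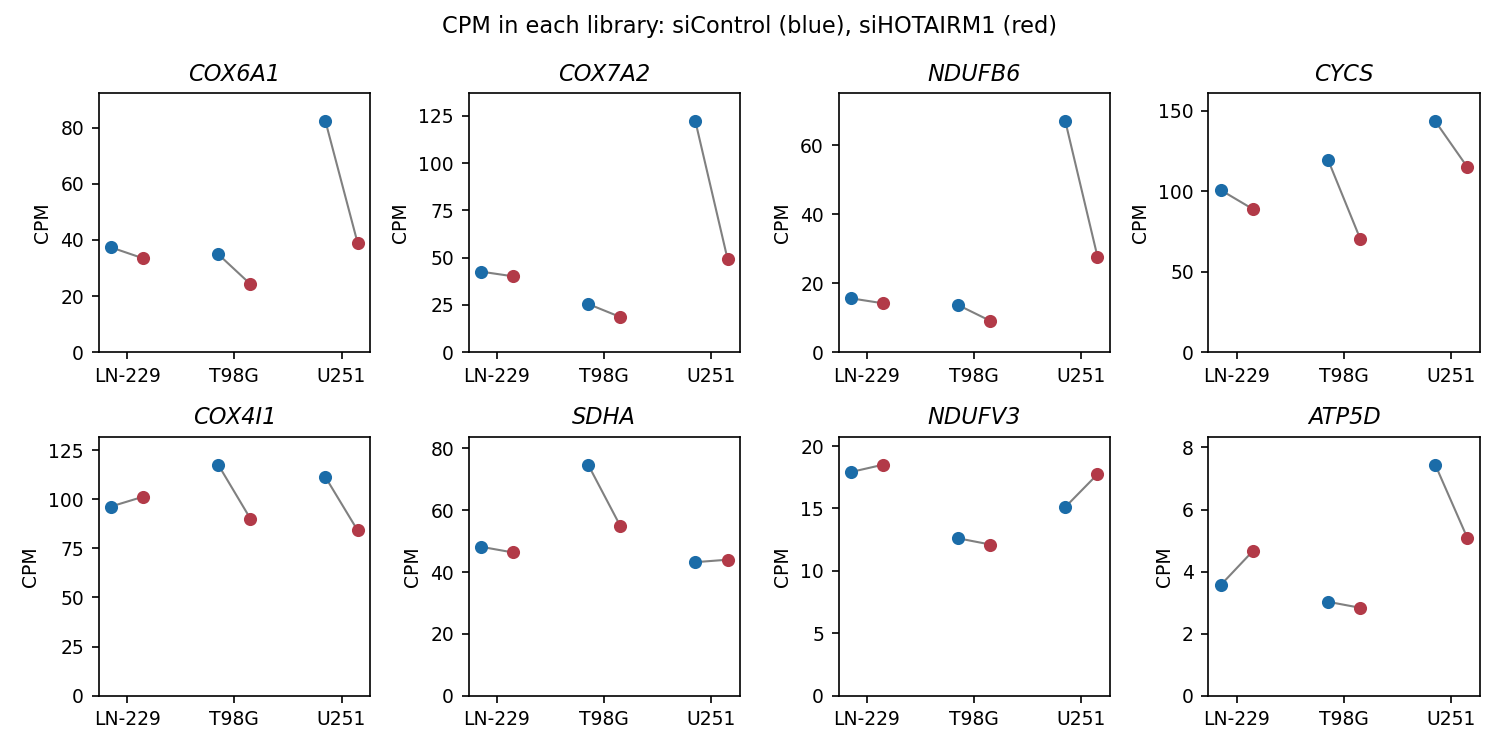
CPM of the 3 members that fell (COX6A1, COX7A2 and NDUFB6) and of CYCS, COX4I1, SDHA, NDUFV3 and ATP5D in each library, siControl in blue and siHOTAIRM1 in red, with a line joining the libraries of a cell line; each axis starts at 0. In U251, COX7A2 goes from 122 to 49.3 CPM, while NDUFV3 goes from 15.1 to 17.7 CPM.

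Complex V joins a catalytic head in the matrix to a proton-driven ring in the membrane. Its 15 members had medians of 0.06 for LN-229, −0.41 for T98G and −0.69 for U251; 4 were lower in LN-229 and all 15 in each of the other lines (6 in LN-229 and 14 in T98G after scaling to listed genes). The medians after that scaling were 0.01, −0.19 and −0.43. None of the 15 passed the test (0 by limma, against 2.0% of all genes, and 0 by the paired t-statistic). At an unadjusted p under 0.05 (limma) there were 10 of 15, against 18.3% of all genes. In U251 the 5 head subunits had a median of −0.47, the 3 genes of the c ring −0.62 and the 7 stalk and membrane subunits −0.72, and −0.41, −0.25 and −0.40 after the subtraction for length, so the order depended on it. ATP5C1, the central stalk subunit gamma, counted here with the head, was at 41.9 and 40.3 CPM in LN-229, 41.7 and 29.6 CPM in T98G and 116 and 50.4 CPM in U251. Its mean of −0.58 (SE 0.16, adjusted p = 0.0541) lay just outside the threshold, and it was among the 14 that passed without LN-229 (−0.84, adjusted p = 0.0372), while it was at −0.27 without U251 (adjusted p = 0.848) and −0.62 without T98G (adjusted p = 0.581). ATP5D, subunit delta of the central stalk, also counted with the head, was at 3.57 and 4.67 CPM in LN-229, 3.03 and 2.83 CPM in T98G and 7.44 and 5.08 CPM in U251. Its mean of −0.08 (SE 0.15, adjusted p = 0.823) turned to 0.00 after centring, 0.05 after scaling to listed genes and 0.12 without U251.

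The subunit of the c ring is encoded by ATP5G1, ATP5G2 and ATP5G3, whose mature proteins are identical. Per kb of coding sequence, ATP5G3 held 40.4% of their summed level in LN-229 siControl and 38.9% in siHOTAIRM1 cells, 61.0% and 60.9% in T98G and 54.5% and 53.6% in U251. ATP5G2 followed with 39.1% and 40.1%, 24.9% and 26.8%, and 30.0% and 32.2%, so it was ahead of ATP5G3 in LN-229 siHOTAIRM1 cells, and ATP5G1 was the smallest in each library. The shares differed more between T98G and LN-229 than between conditions. Per kb of the whole canonical transcript, which is longer for ATP5G3, ATP5G2 came first in every library, so the order of the genes depended on the length used. The sum of the 3 genes was 146 and 150.2 CPM in LN-229, 195 and 142 CPM in T98G and 215 and 142 CPM in U251. Their mean differences were −0.42 for ATP5G1, −0.25 for ATP5G2 and −0.36 for ATP5G3 (adjusted p = 0.130, 0.363 and 0.198), and −0.28, −0.13 and −0.23 without U251.

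Summed by complex, the levels differed in T98G by −24.0% for complex I, −25.8% for complex II, −25.6% for complex III, −28.0% for complex IV and −27.5% for complex V. In U251 the sums differed by −34.4%, −28.9%, −37.8%, −46.9% and −36.1%, and in LN-229 by 1.07%, −4.92%, 0.553%, −0.127% and 3.40%. The complexes thus differed by near equal shares in T98G and less evenly in U251, where complex IV stood lowest on the median and on the sum. Whether complexes differed from one another was not tested.

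The lines differed in their levels of these genes apart from the knock-down. No line had replicate libraries of a condition, so the F-test between lines (same limma fit) rests on its siControl and siHOTAIRM1 libraries together. In it, 65 of 78 members (83.3%) passed at an adjusted p under 0.05, against 81.0% of all genes, so the share was near the background. The count was 52 without the U251 siControl library and 65 without the U251 siHOTAIRM1 library. By complex it was 30 of 37, 3 of 4, 8 of 9, 11 of 12 and 12 of 15. U251 had the highest mean for 60 of 78 members, against 45.6% of all genes, and for 51 of 78, against 27.6%, after scaling to the sum of listed genes. U251 was highest for 64 members among the siControl libraries and for 56 among the siHOTAIRM1 libraries. The largest F values belonged to SDHD, NDUFA1, NDUFA13, ATP5H and NDUFB6.

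Of these, SDHD spanned 2.38 on the log2(CPM + 1) scale from LN-229 to U251 (F = 89.5, adjusted p = 1.64e-13). NDUFA1, a small subunit of the proximal arm encoded on the X chromosome, was at 11.7 and 11.8 CPM in LN-229, 26.8 and 20.4 CPM in T98G and 78.5 and 43.7 CPM in U251 (F = 72.7). Its levels were lowest in LN-229 and highest in U251 in both conditions. NDUFA13, also of the proximal arm, was at 26.2 and 26.0, 21.0 and 18.0, and 112 and 56.6 CPM in the same order (F = 59.4). ATP5H, a peripheral stalk subunit, was at 21.3 and 20.52, 45.5 and 33.8, and 107 and 58.7 CPM (F = 51.2). For all of these the knocked-down U251 cells were still above both other lines. COX4I1 showed the smallest span, 0.09, and did not pass (F = 0.113, adjusted p = 0.899).

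Members have short transcripts, with a median of 830.5 bases for the canonical transcript against 3261 bases for the 13031 genes past the filter that had a length. Across members, Spearman's rho between length and difference was −0.11 for LN-229, 0.04 for T98G and 0.32 for U251 (n = 78 genes of the same library pair, which are not independent replicates). Across all genes it was −0.03, 0.23 and 0.32 (n = 13031). Within complexes, in U251, it was 0.54 for complex I (n = 37), 0.00699 for complex IV (n = 12) and 0.15 for complex V (n = 15). Among transcripts of at most 750 bases in U251, the median was −0.72 for 35 members and −0.43 for all 762 genes. In T98G the medians of this class were −0.41 and −0.29, and in LN-229 0.02 and 0.01. After subtracting, in each library, the median of genes of like length, an alternative chosen after seeing the data, the members' medians were −0.04, −0.17 and −0.33. In U251 shorter transcripts thus tended to the lower differences across members and across all genes, though hardly within complex IV; the part of length in the members' differences beyond this subtraction was not tested.

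**Figure D4:**
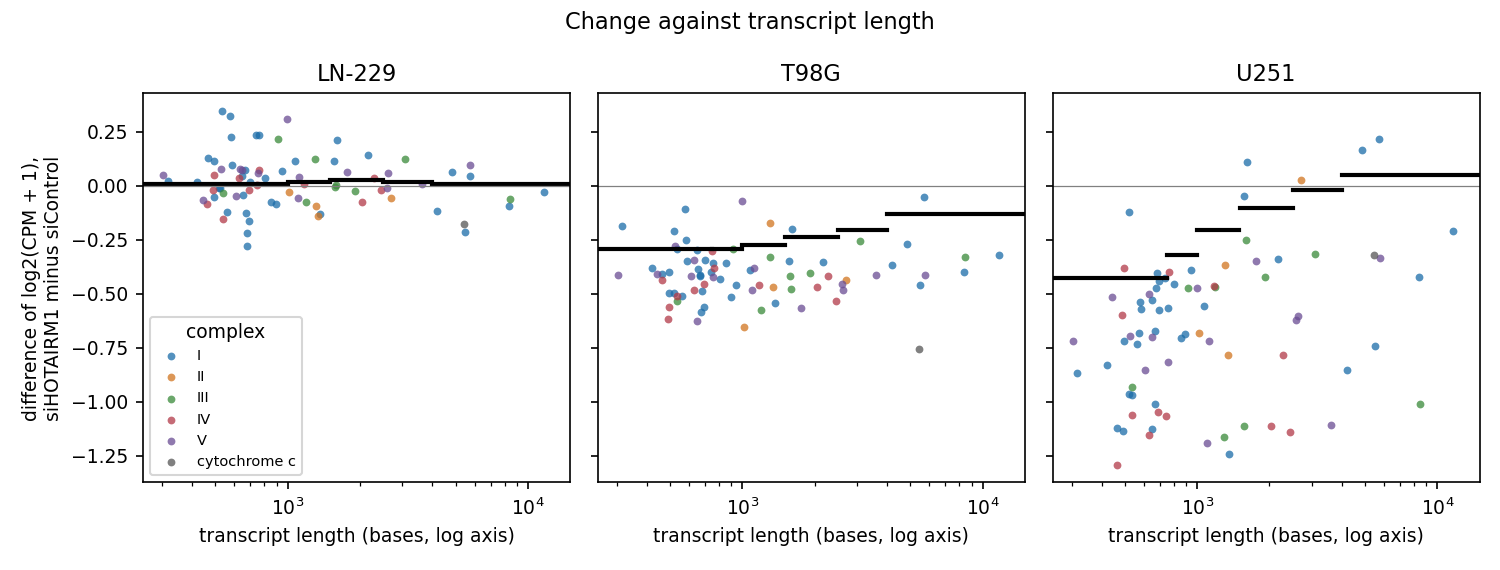
Difference of log2(CPM + 1), siHOTAIRM1 minus siControl, against the length of the canonical transcript (bases, log axis) for the 78 members, coloured by complex, in each cell line. Black bars are medians of all genes in 6 length classes; in U251 they climb from −0.43 for the shortest to 0.05 for the longest class, and most members lie below them.

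Per kb of canonical transcript, averaged over the 6 libraries, the highest levels among members were those of COX8A (136 CPM per kb), COX4I1 (131 CPM per kb) and UQCRH (131 CPM per kb), named after their values were seen. NDUFV3 was lowest of the 78 at 2.74 CPM per kb. Such levels rest on the annotated length, and NDUFV3, with 5725 bases, has one of the longer models.

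Genes that serve the chain but lie outside the choice by symbol were taken from lists. Of 46 listed assembly factors, which build the complexes, 2 fell and 0 rose, against 1.59% and 0.413% of all genes: NDUFAF3, needed for complex I, and COX20, a chaperone for complex IV. NDUFAF3 was at 11.6 and 9.63 CPM in LN-229, 9.56 and 5.98 CPM in T98G and 15.2 and 7.02 CPM in U251 (−0.62, SE 0.15, adjusted p = 0.0243, lower in 3 of 3 lines). COX20 was at 11.3 and 7.48, 18.3 and 13.1, and 52.8 and 30.5 CPM (−0.59, SE 0.14, adjusted p = 0.0229, lower in 3 of 3 lines). The medians of the assembly factors were 0.01, −0.27 and −0.37, nearer to those of all genes than the members' medians in T98G and U251. With libraries scaled to the sum of listed genes they were −0.036, −0.055 and −0.116, so the sign in LN-229 turned. Of 5 other genes listed with complex V, 1 fell (1.59% of all genes did). It was USMG5, a small membrane subunit that the choice by symbol left out of the members. USMG5 went from 108 to 43.6 CPM in U251, 18.2 to 11.9 CPM in T98G and 26.5 to 24.6 CPM in LN-229 (−0.65, SE 0.16, limma adjusted p = 0.0250). Without U251 the adjusted p was 0.496 for NDUFAF3, 0.301 for COX20 and 0.722 for USMG5. Without T98G it was 0.581, 0.529 and 0.581, and COX20 also missed the threshold without LN-229 (0.0711).

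Upstream of the chain, 0 of 17 genes of pyruvate oxidation and the citric acid cycle passed the test by limma, and 0 by the paired t-statistic. At an unadjusted p under 0.05 (limma) there were 3 of the 17, near the share of all genes (18.3%). Their medians were 0.02, −0.36 and −0.11. In U251 this list lay near the median of all genes (−0.08 relative to it), against −0.62 for the subunits. Its U251 median turned to 0.15 after scaling to listed genes, where that of all genes was 0.16. Of 13 transcription factors and cofactors of respiratory genes, 0 passed by limma and 0 by the paired t-statistic. At an unadjusted p under 0.05 (limma) there were 2 of the 13, near the share of all genes (18.3%). The medians of this list were 0.02, −0.26 and 0.01. After scaling to listed genes its U251 median was 0.25, where that of all genes was 0.16. Of 12 genes that handle superoxide and peroxide, 1 fell, against the same 1.59%: GPX1, which reduces hydrogen peroxide with glutathione. It was at 22.8 and 22.5 CPM in LN-229, 10.4 and 6.70 CPM in T98G and 79.3 and 32.5 CPM in U251 (−0.61, SE 0.16, adjusted p = 0.0420, lower in 3 of 3 lines; adjusted p = 0.804 without U251 and 0.581 without T98G). The medians of the list were 0.03, −0.40 and −0.39 (−0.02, −0.19 and −0.14 after scaling to listed genes). Lower were 12 of 12 in U251, 11 in T98G and 5 in LN-229, against 53.2%, 79.3% and 46.3% of all genes. SOD2, the superoxide dismutase of the mitochondrial matrix, is named after its values were seen. It was at 145 and 315 CPM in LN-229, 116 and 45.3 CPM in T98G and 67.3 and 60.9 CPM in U251. LN-229 and T98G went opposite ways, and the mean difference was −0.12 (SE 0.23, adjusted p = 0.824).

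Some members share reads or bases with other genes. Beside COX6A1 and SDHA, the copy of NDUFV2 held 35.2% to 38.1% and those of ATP5E 11.9% to 14.2% of the joint reads. Exons overlapped another gene on the same strand for 19 of the 84 members and on the opposite strand for 21. Values of these genes are uncertain, by that share for the copies and by an amount not measured for the overlaps. The overlapping members include SDHD, UQCRQ, NDUFB8, NDUFA13, ATP5H, ATP5G3 and COX8A, whose levels are given above. When each member was summed with its listed pseudogenes, the members' medians were 0.01, −0.41 and −0.65.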

How the data were processed

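RNA of 6 libraries was sequenced by the authors, who trimmed the reads, aligned them to hg38 with STAR 2.4.1d and the remainder with Bowtie 2 (2.2.5), and quantified genes of Ensembl release 84 by expectation maximisation in Partek Flow. They deposited CPM per gene with 0.0001 added; the siControl and siHOTAIRM1 libraries of each line came from the labels, and no column was left unused (0). Depth was recovered from the smallest step of CPM, but 78.8% to 83.2% of all values above the added one (91.02% to 91.96% of those up to 20 reads) were within 0.1 of whole reads, so no count model was used.

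The 14294 genes averaging 1 CPM or more were tested on log2(CPM + 1) with limma 3.58.1 (R 4.3.3; mean-variance trend; cell line as block; Benjamini-Hochberg over 14294 genes; threshold 0.05); the same fit gave the F-test between lines. The p-values of the knock-down rest mostly on the variance that limma takes from other genes. The spread of a gene's own differences between these 3 cell lines enters with little weight, whereas the paired t-statistic uses that spread alone. In the F-test both libraries of a line serve as its replicates. Pairing follows from the shared cell line: deviations from group means correlated at 0.948 to 0.967 between libraries of a line and at −0.505 to −0.467 between lines. The script was tested on simulated data. Tables were made with Python 3.11.15 (pandas 2.3.3, numpy 2.4.6, scipy 1.17.1) and figures with matplotlib 3.10.9. Positions and lengths are those of GENCODE 44 canonical transcripts (84 of 84 members matched, 15 by an older symbol; 91.2% of genes past the filter).

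Named genes are members past the threshold, those with the highest and lowest mean difference of each complex and the largest difference in each line, members below the filter, isoform pairs, the ATP5G genes, the 5 largest F values, up to 3 genes past the threshold per list, and HOTAIRM1. The members and lists were chosen with earlier results of these data known. Alternatives were no block, a paired t-statistic per gene, centring, scaling to listed genes, a pseudocount of 0.1, no filter, leaving out each line or library, counting NDUFA4 with complex I and adding pseudogenes; scaling to protein-coding genes and subtracting medians of 20 length classes were chosen after seeing the data.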

Additional observations from a re-analysis of the deposited data

Results flagged for a closer look

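Of the members with a named value, 3 had differences of opposite sign and of at least 0.1 in LN-229 and U251, with each line represented by 1 library pair. NDUFB7 was at 0.35 in LN-229 and −0.97 in U251, 1.31 apart. ATP5D was at 0.31 and −0.47, 0.78 apart, and UQCRFS1 at 0.12 and −0.32, 0.44 apart. Relative to the median of all genes the signs were unchanged for these 3 (0.33 and −0.94, 0.30 and −0.45, 0.11 and −0.29). Of all 78 members, 13 (16.7%) met the same rule with LN-229 higher and U251 lower, against 6.52% of all genes, by distances of 0.44 to 1.31. With T98G in place of U251 these were 10 of 78 (12.8%) and 4.81%, NDUFB7 (−0.29 in T98G) being the 1 member named. These differences between lines were not tested. Groups of 3 libraries were too small for a search for single deviating samples.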

How the results depend on the processing

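The number of members called (3) was 0 with no block for the cell line, by the paired t-statistic, after centring, after scaling to listed or to protein-coding genes, with no filter and after subtracting length class medians, 18 with a pseudocount of 0.1 (the 3 among them), and 0 to 14 when a line was left out. At an unadjusted p under 0.05 these counts were 0 with no block, 1 by the paired t-statistic, 33, 20 and 22 after the scalings, 4 with no filter and 28 after length class medians. Of all genes, 286 passed in limma (20.6% of them higher), against 0 with no block, by the paired t-statistic, after scaling to listed or protein-coding genes and with no filter, 41 after centring (36.6% higher), 67 after length class medians (29.9% higher), 683 with a pseudocount of 0.1, and 0 to 270.0 when a line was left out. Genes called in the pathway lists (4) numbered 0 with no block, 0 after centring and 8 with a pseudocount of 0.1. The HOTAIRM1 difference was −0.54 with no block (adjusted p = 0.999998), by the paired t-statistic (0.637) and with no filter (0.980), −0.87 with a pseudocount of 0.1 (0.00302), −0.46 after centring (0.170) and after scaling to protein-coding genes (0.185), −0.45 after scaling to listed genes (0.234), −0.33 after length class medians (0.248), and −0.56 to −0.50 when a line was left out. Members differing between lines numbered 3 with no filter, where many genes at 0.0001 in every library entered the variance trend, and 52 to 65 when a library was left out. Signs turned for NDUFV3 without U251 (−0.0048), for NDUFB7 when a line was left out (−0.63 without LN-229 to 0.027 without U251) and for ATP5D after centring (0.00032), scaling to listed genes (0.047), scaling to protein-coding genes (0.019), length class medians (0.13) and when a line was left out (−0.27 without LN-229 to 0.12 without U251). Leaving out a line leaves 2 pairs; the cause of the other moves was not tested. The scaling to protein-coding genes and the length class medians were chosen after seeing the data.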
